A study of Mus musculus with 2 samples.

Results

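The conjugating enzymes of the glutathione S-transferase (Gst and Mgst), UDP-glucuronosyltransferase (Ugt) and sulfotransferase (Sult) families were compared between fetal livers with and without deletion of Prox1. The rule for members uses gene names and no signal: every probe set that the platform annotation assigns to exactly 1 gene whose symbol starts with Gsta, Gstm, Gstp, Gstt, Gstk, Gsto, Mgst, Ugt1, Ugt2, Ugt3 or Sult, pseudogenes left out. The families themselves were proposed with earlier results of these data known. The rule gave 58 of 45037 probe sets, which stand for 45 of 18193 genes. RefSeq lists 66 protein-coding genes with these prefixes. Those without a probe set of their own, among them all 9 Ugt1 genes and 8 of 21 Sult genes, were not analysed here as single genes.

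Total RNA came from whole livers of mouse embryos at E14.5, and the strain label was NMRI/C57Bl6 for both samples. The wild-type sample carried no further allele by its label. The other sample was Prox1 f/f;Foxa3Cre, in which Cre driven by Foxa3, a gene of the endoderm that gives rise to hepatoblasts, recombines floxed Prox1. The Prox1 protein is a homeobox transcription factor present in early liver cells, and the study's title names the choice between hepatocyte and cholangiocyte fate as its question. Each genotype was measured on 1 Affymetrix array, so there are no replicates, no SD and no test between genotypes, and each difference is between these 2 samples. The labels give no number of embryos per sample.

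Conjugating enzymes attach a soluble group to reactive or fat-soluble compounds so that they can be exported into bile or urine. Glutathione transferases use glutathione, glucuronosyltransferases use UDP-glucuronic acid and sulfotransferases use PAPS, the activated form of sulfate. In adult liver they are largely hepatocyte enzymes, and many are switched on only as the hepatocyte matures. Several of the families lie as arrays of similar neighbouring genes, so a probe set can also read a close relative.

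Signals are MAS5 values on a linear scale. The floor was 112.6, the larger of the 2 arrays' median signals, and any signal under it was replaced by it in log2 values. Where a gene had several probe sets, the brightest by mean log2 signal stood for it, and the gene counted as measured when that probe set was above the floor on at least 1 array. Log2 differences are given as knockout minus wild type. A gene above the floor on 1 array only has a bound, written "at least N-fold". Where a pair of signals is given, wild type comes before the knockout. Levels of different genes were not set against each other, since each probe set has its own brightness. The exception is the summed signals of the marker lists, in which bright probe sets weigh most.

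The defining fetal liver products Afp (36369 and 35212) and Alb (32396 and 33186) were bright on both arrays. As a check of the genotype labels, Prox1 was lower on the knockout array on all 3 of its probe sets. The brightest had signals of 340.3 in wild type and 221.8 without Prox1. The others read 205.9 and 111.8, and 175.4 and 66.7, each below the floor in the knockout. The labels do not say whether the probe sets lie within the recombined part, so these readings do not measure the extent of deletion. The arrays also differed in sex-linked genes: Xist read 11467 and 365.7 on the wild-type and knockout arrays, and the Y-linked gene Eif2s3y read 0.87 and 1972. Genotype and this difference cannot be told apart for any gene below.

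Of the 45 conjugating enzyme genes, 32 were measured, 25 on both arrays, 6 in wild type only and 1 in the knockout only. The other 13 were below the floor on both arrays. Among the 32 measured members, 6 were at least 2-fold lower and 4 at least 2-fold higher in the knockout, 18.8% and 12.5%, where 2.13% and 3.27% of all 11397 measured genes were that far apart (31.2% of members in either direction, against 5.4% of measured genes). Members above the floor in wild type only made up 18.8%, against 3.19% of measured genes, and in the knockout only 3.12%, against 7.12%. Members measured on 1 array only could differ in no direction but that array's, so the 25 measured on both were also counted apart. They held 4 lower and 4 higher genes (16% each), against 1.85% and 2.61% of the 10221 genes measured on both arrays. The median log2 difference of these 25 was -0.05, against 0.01 over all genes measured on both arrays, and 14 of them were below 0 (56%, against 47.9% of those genes). Over all 32 measured members, with the 7 whose direction the floor sets, the median was -0.20. The mu-class glutathione transferases held most of the higher genes, and the membrane-bound Mgst genes read nearly alike on the 2 arrays.

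**Figure D1:**
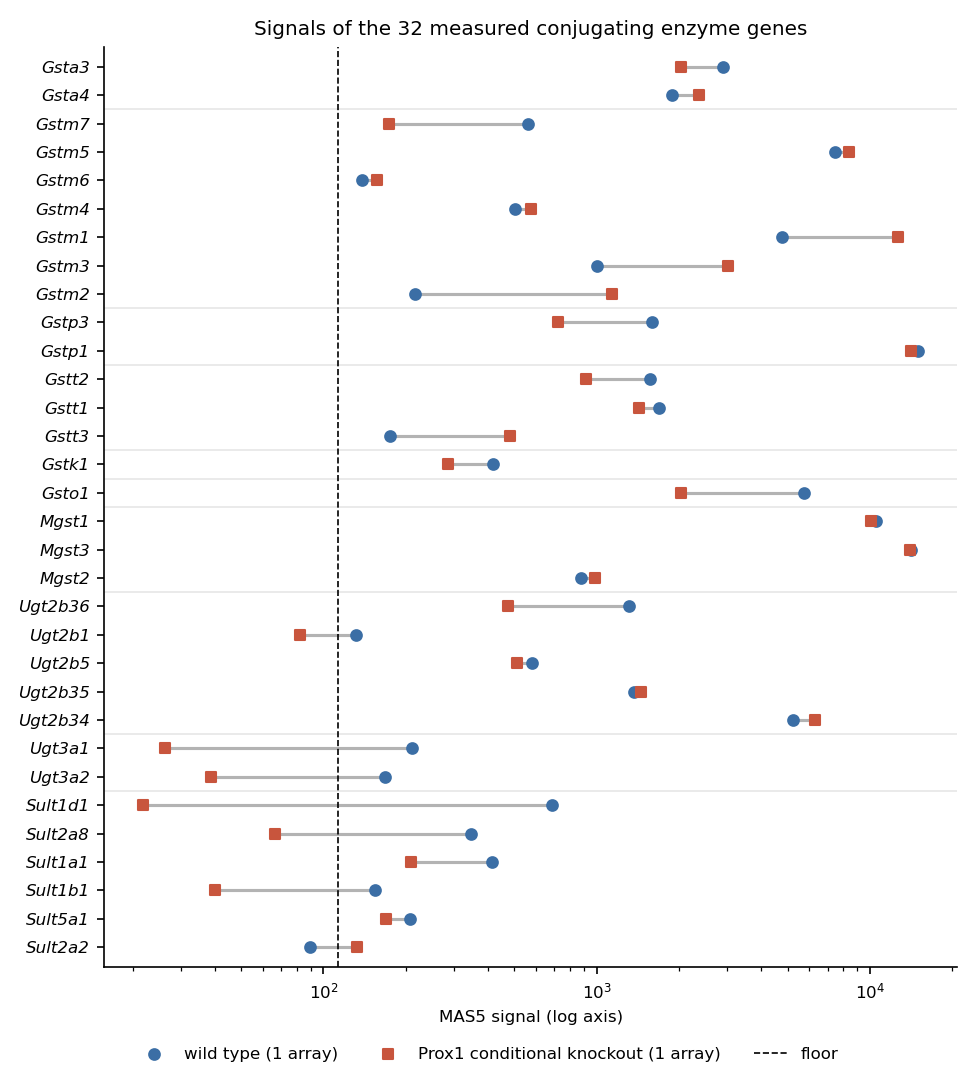
MAS5 signal (log axis) of the 32 measured conjugating enzyme genes on the wild-type array (circles) and the Prox1 conditional knockout array (squares), 1 array per genotype, by family; the dashed line is the floor of 112.6. Gstm1, Gstm2, Gstm3 and Gstt3 read higher in the knockout, and Sult1d1, Sult2a8, Sult1b1, Ugt2b1, Ugt3a1 and Ugt3a2 pass from above to below the floor.

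The mu-class genes (Gstm) are cytosolic enzymes with broad activity on electrophiles. At the floor used, their log2 differences covered the widest range of any family with over 3 measured genes, -1.69 to 2.40. The floor cuts the range of the Sult genes. With the floor at the 30th percentile it was the wider one, from -3.97 (Sult1d1) to 0.57 (Sult2a2). All 7 Gstm genes were measured on both arrays, with 3 at least 2-fold higher, 1 at least 2-fold lower and 3 between. Gstm2 had signals of 216.4 and 1141, 5.27-fold higher, a log2 difference of 2.40 and the highest of all members. Gstm3 read 1000.2 and 3016, 3.02-fold higher, and its other probe set, at 290.5 and 943.9, gave a log2 difference of 1.70. Gstm1, the most studied mu-class enzyme of mouse liver, read 4775 and 12677, 2.65-fold higher. Its 3 other probe sets gave log2 differences of 0.88, 1.46 and 1.59, so all 4 lay in the same direction. Gstm7 went the other way, from 559.4 to 173.4, 3.23-fold lower, while its dimmer probe set read 153.0 and 113.6, the latter barely above the floor, with a log2 difference of -0.43. Gstm5 (7484 and 8405), Gstm4 (503.4 and 575.7) and Gstm6 (138.3 and 156.5) differed by 0.17 to 0.19 on the log2 scale.

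These 7 genes are neighbours on chromosome 3, in the order Gstm5, Gstm7, Gstm6, Gstm3, Gstm2, Gstm1 and Gstm4, with no other protein-coding gene of the RefSeq table between them. The 3 higher genes stand next to each other in the middle of the array, and Gstm7, the lower one, is separated from them by Gstm6 alone. Mu-class genes are close relatives, and how far each probe set also reads its neighbours was not tested, so the share of each of the 3 genes in the joint difference is uncertain. On probe sets without the suffixes _s_at, _x_at and _a_at, which Affymetrix gives to probe sets that may match several transcripts, the log2 differences were 2.40 for Gstm2, 1.70 for Gstm3 and 1.46 for Gstm1.

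The 100 bases before the start of the 3 neighbours that were higher together are shown from RefSeq (GRCm38.p6, minus strand, 5′ to 3′). They lie at chr3:107969175-107969274 for Gstm3, chr3:107986421-107986520 for Gstm2 and chr3:108017974-108018073 for Gstm1, the last before the outermost of its RefSeq starts. Capitals mark matches to the motifs searched: a C/EBP site (TTGCNNAA) in Gstm2 and a xenobiotic response element core (GCGTG) in Gstm1.
Gstm3: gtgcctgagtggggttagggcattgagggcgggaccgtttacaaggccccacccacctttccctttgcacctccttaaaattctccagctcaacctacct
Gstm2: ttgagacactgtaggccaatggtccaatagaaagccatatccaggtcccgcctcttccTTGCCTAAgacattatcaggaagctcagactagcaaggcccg
Gstm1: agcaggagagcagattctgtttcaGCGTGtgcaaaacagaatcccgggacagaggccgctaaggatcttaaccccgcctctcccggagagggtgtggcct
No searched motif was common to the 3 stretches. The longest run shared by those of Gstm2 and Gstm3 was 8 bases. The pairs with Gstm1 were not compared in this way, though the stretches of Gstm2 and Gstm1 both hold the letters cccgcctct. How much sequence the 3 share beyond the searched motifs was therefore not measured.

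**Figure D2:**
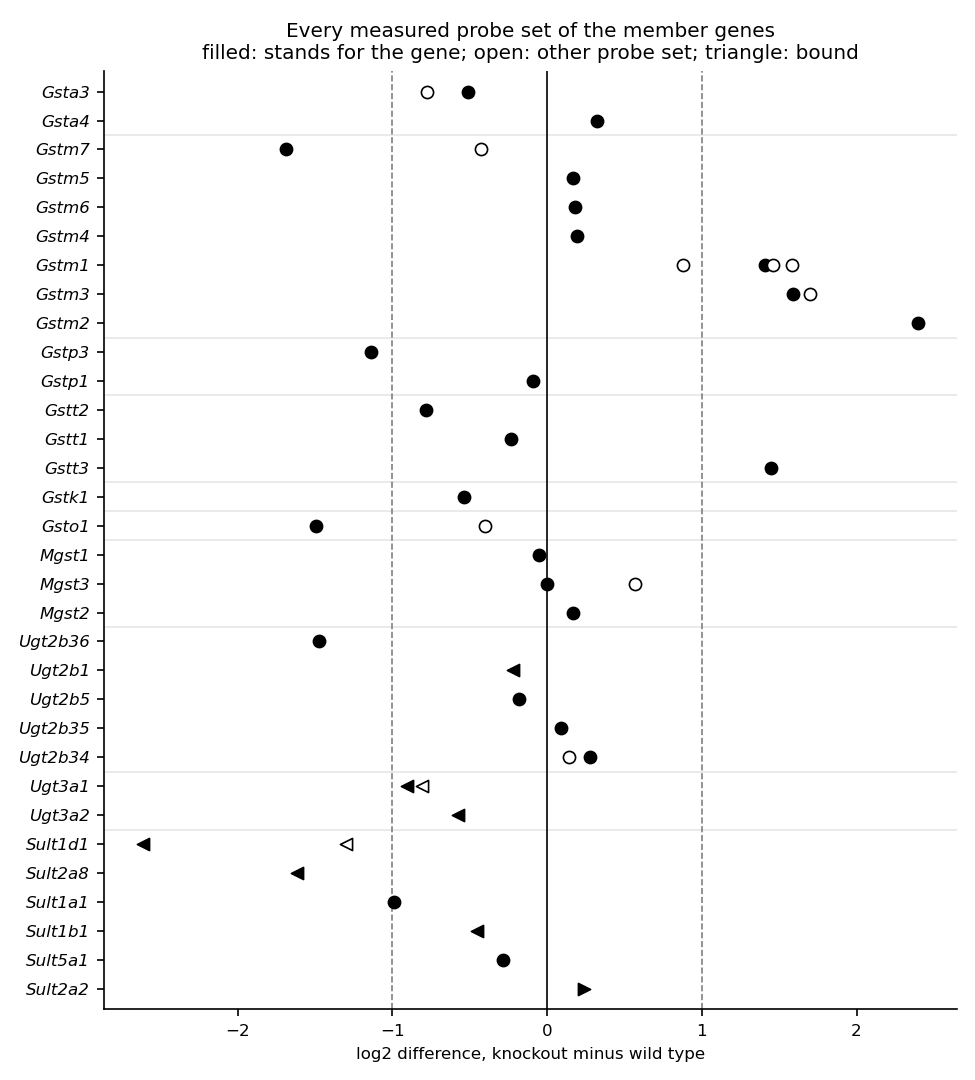
Log2 difference, knockout minus wild type, of every measured probe set of the 32 measured genes; filled symbols stand for the gene, open symbols are its other probe sets, triangles are bounds, and dashed lines mark 2-fold. The 2 probe sets of Gstm3 lie at 1.59 and 1.70, those of Gsto1 at -1.50 and -0.40, those of Gstm7 at -1.69 and -0.43, and those of Sult1d1 at bounds of -2.61 and -1.30.

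The theta class (Gstt), which acts on small halogenated compounds, was also split. Gstt3 read 175.9 and 479.8, 2.73-fold higher. Gstt2 read 1571 and 912.6, 1.72-fold lower, and Gstt1 read 1685 and 1432, a log2 difference of -0.24. They lie together on chromosome 10 in the order Gstt3, Gstt1, Gstt4 and Gstt2. Gstt3 and Gstt2 thus differ in direction at the 2 ends of the array, and Gstt4 was below the floor on both arrays. Each theta gene had 1 probe set.

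In the pi, omega, kappa and alpha classes the larger differences were towards lower. Gstp3, a pi-class gene, read 1592 and 724.0, 2.20-fold lower. Its relative Gstp1, the main pi-class enzyme, read 15039 and 14141, a log2 difference of -0.09. Gsto1, the omega-class enzyme that reduces dehydroascorbate, read 5743 and 2036 on its brightest probe set, 2.82-fold lower, but 3721 and 2813 on the other, a log2 difference of -0.40. The brighter of these carries the suffix _x_at, and without it Gsto1 is under 2-fold. Gstk1, the kappa-class enzyme of mitochondria and peroxisomes, was 1.45-fold lower, from 416.5 to 286.8. Of the alpha class, which detoxifies products of lipid peroxidation, Gsta3 was 1.43-fold lower (2909 and 2040; -0.77 on its other probe set) and Gsta4 was 1.25-fold higher (1891 and 2360). Gsta2 and Gsto2 were below the floor on both arrays.

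The membrane-bound transferases were close between the arrays. Mgst1, of the endoplasmic reticulum and outer mitochondrial membrane, read 10507 and 10130, a log2 difference of -0.05. Mgst3 read 14103 and 14078, and a much dimmer probe set of it read 164.7 and 244.5, a log2 difference of 0.57. Mgst2 read 878.3 and 984.8, a log2 difference of 0.17. All 3 Mgst genes thus lay far under 2-fold on the probe sets that stand for them.

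Glucuronosyltransferases differed by gene within a single array on chromosome 5. Ugt2b enzymes glucuronidate steroids, bile acids and drugs. Ugt2b36 read 1316 and 473.9, 2.78-fold lower. Its neighbours on either side did not share this difference: Ugt2b35 read 1371 and 1458 (log2 difference 0.09), and Ugt2b5 read 581.6 and 513.1 (log2 difference -0.18). Ugt2b34, at the end of the array, read 5213 and 6315 (log2 difference 0.28), with its other probe set at 0.14. Ugt2b1 passed below the floor, from 131.1 to 81.9, a bound of 1.16-fold. Ugt2a3, Ugt2b37 and Ugt2b38 were below the floor on both arrays. In all, 1 of 5 measured Ugt2 genes was 2-fold apart.

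The 100 bases before the start of these 3 neighbours are shown to set their likeness beside the signals: Ugt2b36 was over 2-fold lower and the other two were not. The stretches, from RefSeq (GRCm38.p6, 5′ to 3′), lie at chr5:87000760-87000859 on the plus strand for Ugt2b35, chr5:87092556-87092655 on the minus strand for Ugt2b36 and chr5:87140341-87140440 on the minus strand for Ugt2b5. Capitals mark the longest run that Ugt2b36 and Ugt2b5 share, of 24 bases.
Ugt2b35: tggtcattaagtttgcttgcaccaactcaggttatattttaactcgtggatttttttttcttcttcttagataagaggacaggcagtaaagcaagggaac
Ugt2b36: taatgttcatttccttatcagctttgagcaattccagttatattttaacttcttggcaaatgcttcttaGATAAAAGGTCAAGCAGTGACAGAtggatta
Ugt2b5: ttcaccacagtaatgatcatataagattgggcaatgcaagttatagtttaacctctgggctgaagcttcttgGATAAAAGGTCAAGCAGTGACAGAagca
In a global alignment 72 of 100 bases were identical between Ugt2b36 and Ugt2b5, and 63 between Ugt2b36 and Ugt2b35. Ugt2b5 and Ugt2b35 had 56 identical bases, and their longest shared run was 6 bases. Mismatches and end gaps carried no cost in this alignment, which raises such counts. The stretches of Gstm2 and Gstm3 gave 50 in the same way, and no unrelated stretches were aligned. Ugt2b36 and Ugt2b5 each also hold a match to the C/EBP site, at positions -77 and -74 from the start.

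Both Ugt3 genes, whose enzymes use sugars other than glucuronic acid, were above the floor in wild type only. Ugt3a1 went from 211.3 to 26.2, at least 1.88-fold lower, and its other probe set read 197.3 and 14.1. Ugt3a2, its neighbour on chromosome 15, read 168.2 and 38.8, at least 1.49-fold lower. These bounds are set by the floor: with the floor at the 30th percentile the log2 differences were -2.26 and -1.93, beyond 2-fold.

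**Figure D3:**
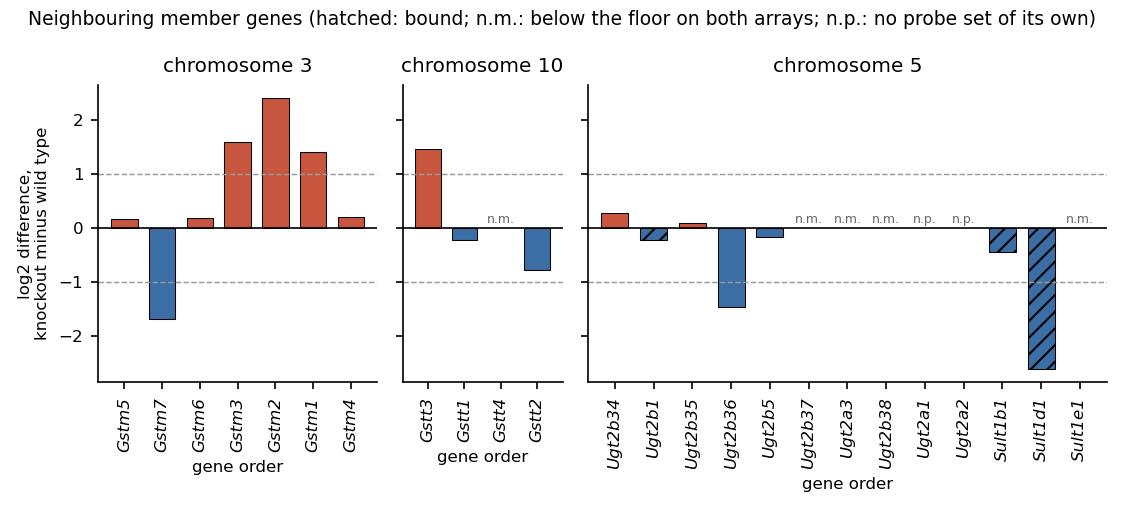
Log2 difference, knockout minus wild type, of neighbouring member genes in their order along chromosomes 3, 10 and 5, not to distance; hatched bars are bounds and dashed lines mark 2-fold. Gstm3, Gstm2 and Gstm1 stand side by side above 2-fold, while Ugt2b36 lies below it between neighbours near 0.

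Of 13 sulfotransferase (Sult) genes 6 were measured, 2 on both arrays, 3 in wild type only and 1 in the knockout only. The median log2 difference of the 6 was -0.72, in which 4 values are bounds whose direction the floor sets, and that of the 2 on both arrays was -0.64. Sult1d1, a sulfotransferase of catecholamines and other phenols, went from a wild-type signal of 688.0 to 21.9, at least 6.11-fold lower and the lowest of all members. Its other probe set went from 276.7 to 10.3, also below the floor, a bound of -1.30 on the log2 scale. Sult2a8, a sulfotransferase of bile acids, went from 345.9 to 66.4, at least 3.07-fold lower. Sult1a1, the main phenol sulfotransferase, read 414.5 and 208.5, 1.99-fold lower and so just outside the 2-fold mark, which it passed under each of the 3 rescalings tried. Gstp3, at 2.20-fold, was the member closest to the mark on the inside.

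The remaining measured sulfotransferases were dim. Sult1b1, which acts on thyroid hormone, went from 154.4 to 40.2, at least 1.37-fold lower. The floor sets this bound: with the floor at the 30th percentile the log2 difference was -1.81, beyond 2-fold. Sult5a1 read 206.7 and 169.6, a log2 difference of -0.29. Sult2a2 was the only member above the floor in the knockout alone, at 89.4 and 132.8, a bound of 1.18-fold. The estrogen sulfotransferase Sult1e1 and the cholesterol sulfotransferase Sult2b1 were below the floor on both arrays, as were Sult1c1, Sult1c2, Sult3a1, Sult4a1 and Sult6b1. Sult1b1, Sult1d1 and Sult1e1 follow the Ugt2 genes directly on chromosome 5, so Ugt2b36 and Sult1d1, both lower in the knockout, belong to one run of conjugating genes in which Ugt2b34 and Ugt2b35 were not lower.

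The 100 bases before the start of Sult1d1, the lowest member, lie at chr5:87569007-87569106 on the minus strand of GRCm38.p6 (RefSeq, 5′ to 3′), with a match to the xenobiotic response element core, read on the opposite strand, in capitals.
Sult1d1: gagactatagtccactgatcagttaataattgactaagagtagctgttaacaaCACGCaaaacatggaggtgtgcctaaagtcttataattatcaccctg

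Motifs were searched on both strands of the RefSeq windows from 250 bases before to 50 after each start, of which 28 of the 32 measured members had 37. The C/EBP site TTGCNNAA was in 24.3% of the member windows and 10.8% of all 32851 windows. Its 9 member genes include Ugt2b36, Sult2a8 and Gstp3, which were lower, Gstm2, which was higher, and Ugt2b5 and Gstt1, which were under 2-fold. The antioxidant response element core TGACNNNGC, the letters bound by Nrf2 with its Maf partners, was in 10.8% of member windows (Gsta3, Gstm5, Gstm7 and Mgst1) and 12.4% of all. The xenobiotic response element core GCGTG was in 21.6% and 32.4%; in Gstm5 it overlaps the antioxidant core. The HNF4 site CAAAGTCCA was in 2.7% of member windows (Sult1b1) and 0.475% of all. The HNF1 palindrome and the HNF4 direct repeat were in 0 member windows, and in 0.00913% and 0.0396% of all windows. With letters this rare, 37 windows cannot show whether members lack such sites. A match here is a match of letters only.

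The members were also set beside genes of like brightness. Among genes measured on both arrays, the middle 95% of log2 differences ran from -0.79 to 1.10 at mean signals below 250, where 2 members lay, both within it. It ran from -1.01 to 1.12 at mean signals from 250 to 1000, from -0.70 to 0.75 from 1000 to 5000, and from -0.78 to 0.47 above 5000. Of the 25 members measured on both arrays, 9 lay outside the range of their brightness: Gstm1, Gstm2, Gstm3 and Gstt3 above it, and Gstm7, Ugt2b36, Gsto1, Gstp3 and Gstt2 below it. The range is that of these 2 arrays and is no measure of the spread between animals. Of 9 members with more than 1 measured probe set, 8 had all of them in the same direction, the exception being Mgst3.

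**Figure D4:**
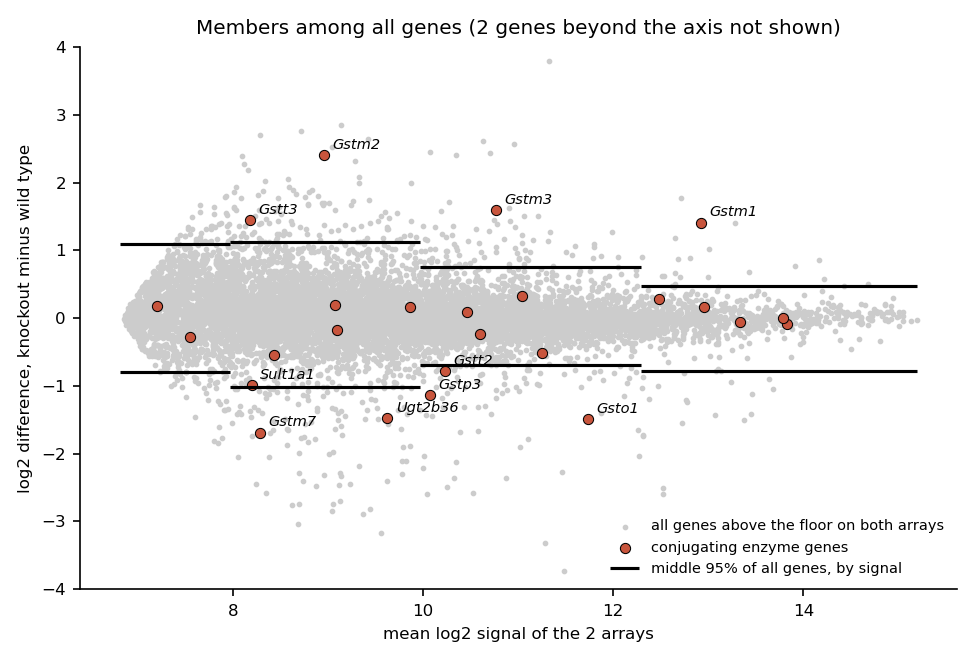
Log2 difference, knockout minus wild type, against the mean log2 signal of the 2 arrays, for all genes above the floor on both arrays (grey) and the 25 member genes among them (red); black lines bound the middle 95% of all genes by brightness, and 2 genes beyond the axis are not shown. Gstm1, Gstm2, Gstm3 and Gstt3 lie above the lines, and Gstm7, Ugt2b36, Gsto1, Gstp3 and Gstt2 below them.

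The supply of the 3 conjugating groups was examined in lists of genes around the reactions. Of all measured genes, 2.13% were at least 2-fold lower and 3.27% at least 2-fold higher. For glutathione, 2 of 8 measured genes were at least 2-fold lower and 0 higher, with a median log2 difference of -0.04. They were Cth (2197 and 474.4, 4.63-fold lower) and Cbs (604.2 and 187.2, 3.23-fold lower), which make cysteine from methionine's sulfur. The subunits of the rate-limiting glutathione synthesis enzyme were under 2-fold apart. Gclm read 7791 and 7647, and Gclc read 3036 and 4038, 1.33-fold higher. For UDP-glucuronic acid, 0 of 6 measured genes were 2-fold apart and the median was 0.17. Ugp2, which makes UDP-glucose, was 1.87-fold higher and Ugdh, which oxidises it to UDP-glucuronic acid, 1.65-fold higher. For PAPS and sulfate, 0 of 9 were 2-fold apart, with a median of 0.16, and the farthest were the sulfate transporter Slc26a2 (1.83-fold higher) and sulfite oxidase Suox (1.79-fold lower).

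Among regulators and partners, Nrf2 pathway genes had a median of 0.26 over 12 measured, with 10 above 0. The other 2 were below 0 (16.7%, against 46.2% of all measured genes). Srxn1, which repairs oxidised peroxiredoxins, read 485.4 and 977.5, 2.01-fold higher, and was under 2-fold with quantile normalization and median centring. The next farthest from 0 were Akr1b8 (502.4 and 934.5, 1.86-fold higher), Txnrd1 (1.54-fold higher) and Hmox1 (1.42-fold higher). Mafg and Gclm were the 2 below 0, at -0.09 and -0.03. Nfe2l2, which encodes Nrf2, read 2794 and 3073, and its target Nqo1 343.0 and 438.2. Of 7 measured xenobiotic receptors and partners, the bile acid receptor Nr1h4 was 3.66-fold higher, 0 were 2-fold lower and the median was -0.07. The pregnane X receptor Nr1i2 read 198.8 and 124.1, and Nr1i3, its relative, was below the floor on both arrays.

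Genes of the list of other conjugating enzymes, which also holds methyltransferases of metabolism such as Gnmt, lay in both directions. Of 9 measured, the glycine conjugating enzyme Glyat was at least 3.81-fold higher (109.1 and 428.9) and glycine N-methyltransferase Gnmt 5.50-fold lower (1301 and 236.5), with a median of 0.01 that was -0.01 under median centring. Of 8 measured relatives of the glutathione transferases outside the prefixes, Gstz1, an enzyme of tyrosine breakdown, was 2.15-fold lower. Clic6, a chloride channel protein of the transferase fold, was at least 14.45-fold higher, and Alox5ap, needed for leukotriene synthesis, 2.02-fold higher. The median of these 8 was 0.35. Of 11 measured transporters of conjugates, Abcc6 was at least 2.52-fold lower, 0 were 2-fold higher and the median was 0.12. The bilirubin and drug conjugate pumps Abcc2 (165.6 and 179.7) and Abcc3 (297.8 and 391.9) were under 2-fold.

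**Figure D5:**
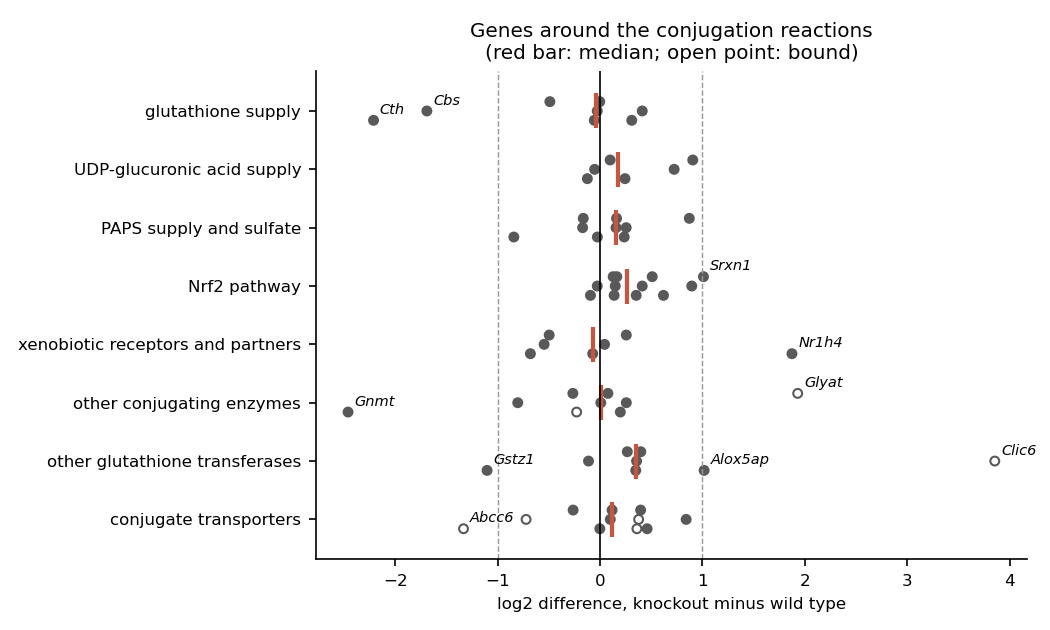
Log2 difference, knockout minus wild type, of the measured genes of 8 lists around the conjugation reactions; open points are bounds, red bars are list medians and dashed lines mark 2-fold. Cth, Cbs, Gnmt, Gstz1 and Abcc6 lie below the lower mark, and Nr1h4, Glyat, Clic6, Srxn1 and Alox5ap above the upper one.

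Markers of several cell types also differed between the arrays. In whole liver, fewer cells of a type and less RNA per cell cannot be told apart. Summed signals are over every listed gene that had its own probe set, those below the floor included, and medians are log2 differences over the measured ones. Of 13 measured hepatocyte markers, 5 were at least 2-fold lower and 12 below 0, with a median of -0.89. Their summed signals were 246897 and 181971, and the largest terms were Afp, Ttr, Alb, Apoa1 and Apoa2, with log2 differences from -0.35 to 0.03. Ahsg, a secreted plasma protein, was the lowest of the list, at 10437 and 788.4. All 10 stellate and mesenchymal markers were measured, 5 at least 2-fold higher, the median being 1.20 and the sums 10334 and 22180. Of 9 measured granulocyte and mast cell markers 4 were 2-fold higher, the median being 0.997 and the sums 35170 and 72746. Of 7 measured cholangiocyte markers 4 were 2-fold higher, the median being 1.28 and the sums 2629 and 6711. Krt19, Krt7, Sox9, Epcam and Cldn7 among them were below the floor in wild type. The macrophage list had a median of 0.37 and sums of 9921 and 13742, and the endothelial list 0.30 with sums of 3520 and 4047. The erythroid list had a median of -0.09 and sums of 85956 and 76880, and its member farthest apart was the transferrin receptor Tfrc (18272 and 12255). Of 12 gut, stomach and pancreas markers 5 were measured, with a median of -0.23 and sums of 2319 and 2047. Vil1, a brush border protein, was at least 2.30-fold higher (20.6 and 259.6). Tff1 read 775.7 and 461.9, Fabp2 727.6 and 444.0, and Cela1 468.0 and 589.4, all under 2-fold. Lgals4, above the floor in wild type only, read 131.8 and 51.9, at least 1.17-fold lower. Cdx2, Pdx1 and Ptf1a were below the floor on both arrays. The part of these markers in the differences of the conjugating enzymes was not tested.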

How the data were processed

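Liver RNA of 1 wild-type and 1 Prox1 f/f;Foxa3Cre sample was measured on 1 array each. The authors deposited linear intensity values, 1 per probe set, made with MAS5 (version not stated), per the submitters' processing notes. The 2% trimmed mean was 500.0 on both arrays, so the values were used as deposited. Control probe sets (64 of 45101) were left out. Gene names came from GEO's platform annotation, and all 45 member genes had their identifier in the RefSeq gene table of GRCm38.p6, which also gave gene order. Probe sets annotated to several genes name none.

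The floor, the size rule and the rule for a gene's probe set are given where first used. The number of arrays limits the precision, and no test was run. Every member was to be accounted for, and pathway genes were named where at least 2-fold apart, or otherwise the 2 farthest from 0 in a list. The members and lists were chosen with earlier results of these data known. The alternatives changed the floor, the scaling, the probe sets, the pseudocount and the fold. The counting was tested on simulated arrays with changes placed only in genes far above the floor. That test does not cover dim members. Python 3.11.15, numpy 2.4.6, pandas 2.3.3, statsmodels 0.14.6 and matplotlib 3.10.9 were used.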

Additional observations from a re-analysis of the deposited data

Results flagged for a closer look

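The Ugt1a genes had no probe set of their own, because the annotation lists 8 of them together on each of 3 probe sets. These shared probe sets entered no count above and are set apart because all were above the floor on both arrays and brighter on the knockout array. The log2 differences, knockout minus wild type, were 0.33 (signals of 2490 and 3139), 0.66 (5111 and 8094) and 0.42 (1791 and 2392). Ugt1a transcripts differ in their opening exon and share the exons that follow, so a shared probe set does not tell which gene was read.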

How the results depend on the processing

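Of 10 members at least 2-fold apart, 8 kept this under all 9 planned settings that left the 2-fold size in place: Gstm1, Gstm2, Gstm3, Gstm7, Gstp3, Gstt3, Sult1d1 and Ugt2b36. Gsto1 was under 2-fold as the median over probe sets (-0.95) and without _s_at, _x_at and _a_at probe sets (-0.40), because its 2 probe sets differ in size, and Sult2a8 was under it with the floor at the 60th percentile (-0.86). No sign of these 10 turned. Sult1a1 passed 2-fold under quantile normalization (-1.06), lowess correction (-1.05) and median centring (-1.01). Ugt3a1 also passed it under quantile normalization (-1.04). With the floor at the 30th percentile, Sult1b1 (-1.81), Ugt3a1 (-2.26) and Ugt3a2 (-1.93) passed it.

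The count of lower members was 14 with no floor and no filter, which let in all 45 members, and 3 at 3-fold, where the count of higher members was 2. With the floor at the 30th percentile, the median log2 difference of Sult genes was -1.40. With the floor at the 60th percentile, it was -0.93 for Sult, 0.80 for Gstm and -0.05 for Ugt2 genes. With no floor it was -0.99 for Sult and 0.09 for Gstt genes, above 0 where the reported median is below it. Under quantile normalization it was -0.83 for Sult genes. As the median over probe sets it was 0.17 for Mgst genes, and without _s_at, _x_at and _a_at probe sets 0.83 for Gstm and -0.46 for Sult genes. Over members above the floor on both arrays, an alternative chosen after seeing the data, it was -0.05 for all members and -0.05 for Ugt2 genes. The remaining 79 of 94 recomputed counts and medians moved by at most 1.5 times or 0.1. The floor limits what dim genes can show. No paired analysis was possible because each genotype has 1 array and the labels number no replicates.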
